A study of Mus musculus with 9 samples.

Results

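The 40 genes described here carry signals from the Toll-like receptors (TLRs) to the transcription factor NF-kB, from the TLR adaptors down to the NF-kB subunits and their inhibitors. They were given as a list of symbols, all 40 were found among the 51912 genes of the count table, and all are protein coding. Their expression was measured by bulk RNA-seq in pre-cDCs, the committed precursors of conventional dendritic cells (cDCs), sorted from the bone marrow (BM) and spleen of mixed BM chimeras. In these chimeras, irradiated CD45.1/2 recipients were given a mixture of BM from WT mice, which were BL/6 and carried CD45.1, and from DNGR-1 KO (KO) mice, which were Clec9aCre/Cre and carried CD45.2. DNGR-1, the product of Clec9a, is a receptor of the cDC lineage that recognises dead cells, and in the KO allele the Cre recombinase sits in the Clec9a locus. BM gave 3 samples of each genotype and spleen gave 1 WT sample and 2 of the KO, each pooled from a pair of mice and none treated. The number of mice the study gives implies that samples shared mice across genotypes, but the labels do not say which, so results are given without a block for replicate number and, where a call changes, with it. The KO cells differ from the WT cells in the CD45 allele and the DNA around it as well as in Clec9a, and genotype and congenic background cannot be told apart. The WT labels disagree with each other on the CD45 allele, and the allele given here is that of the source and tissue fields. Spleens were digested with enzymes whereas BM was flushed, so tissue and preparation cannot be told apart.

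After ligand binding, most TLRs recruit Myd88, which assembles the IRAK kinases and the ubiquitin ligase Traf6; these activate the TAK1 complex and then the IKK complex. IKK marks the inhibitors of NF-kB for degradation, and the freed subunits enter the nucleus, where their targets include the genes of several of their own inhibitors. A slower, noncanonical branch, used by CD40 and lymphotoxin receptors, is held in check by Traf3 and works through Chuk, Nfkb2 and Relb, and in cDCs both branches are tied to maturation and survival.

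Total counts per sample ranged from 17103806 to 23722298, and 3 counts correspond to between 0.127 and 0.18 CPM (read counts scaled to a common library size after TMM normalization), the scale used throughout. Clec9a, the targeted gene, had 905, 1574 and 1766 counts in the WT BM samples, 2459 in the WT spleen sample and 0 or 1 in every KO sample. All 12 pre-cDC and cDC markers looked up, among them Flt3, Itgax, Zbtb46 and Irf8, were above 3 counts in all 9 samples. The spleen libraries lacked some genes: 509 of 8389 genes (6.07%) had at most 3 counts in the WT spleen sample while both KO spleen samples had at least 100, compared with 1.82% and 1.92% in the KO spleen samples and 0 or 1 gene in each BM sample. No member met that criterion, but 2 members had at most 3 counts in a spleen sample, Tab3 and Irak3, and a low value of a member in 1 spleen library cannot be told apart from such a loss.

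The NF-kB pathway feeds back on its own genes, so promoter sequences of members were searched for the kappaB site, the DNA motif that NF-kB binds. RefSeq promoter windows (GRCm38.p6, 250 bases before to 50 after a start site) were held for 32 of the 40 members and were not held for Ticam2, Tab1, Ikbkb, Nfkb1, Relb, Nfkbiz, Unc93b1 and Ly96. A match to the kappaB consensus on either strand was present in a window of 9 of these 32 members (28.1%), compared with 1388 of all 27025 genes with a window (5.14%). The 9 were Nfkb2, Rel, Nfkbia, Nfkbie, Tnfaip3, Tnip1, Traf3, Tank and Map3k7. The 250 bases before the start site are shown for the 4 that were higher in spleen than in BM and for Tnfaip3, which was not called, with the matched bases in capitals; a run of 11 capitals holds 2 overlapping matches.
Nfkbia (chr12:55492648-55492897, minus strand): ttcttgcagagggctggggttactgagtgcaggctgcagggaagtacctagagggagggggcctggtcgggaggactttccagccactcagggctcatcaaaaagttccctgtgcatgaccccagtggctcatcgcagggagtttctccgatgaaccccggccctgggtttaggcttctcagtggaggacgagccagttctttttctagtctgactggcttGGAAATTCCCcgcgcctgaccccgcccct
Nfkbie (chr17:45555450-45555699, plus strand): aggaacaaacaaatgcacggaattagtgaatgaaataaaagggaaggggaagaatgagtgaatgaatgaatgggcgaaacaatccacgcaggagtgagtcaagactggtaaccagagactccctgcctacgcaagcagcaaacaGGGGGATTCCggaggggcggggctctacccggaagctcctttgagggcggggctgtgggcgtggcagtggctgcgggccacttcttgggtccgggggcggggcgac
Rel (chr11:23770970-23771219, minus strand): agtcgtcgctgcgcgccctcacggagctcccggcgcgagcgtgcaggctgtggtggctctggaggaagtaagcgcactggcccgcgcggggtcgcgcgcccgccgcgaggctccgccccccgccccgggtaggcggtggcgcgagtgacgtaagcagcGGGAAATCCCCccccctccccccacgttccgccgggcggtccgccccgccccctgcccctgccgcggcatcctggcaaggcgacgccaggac
Nfkb2 (chr19:46304487-46304736, plus strand): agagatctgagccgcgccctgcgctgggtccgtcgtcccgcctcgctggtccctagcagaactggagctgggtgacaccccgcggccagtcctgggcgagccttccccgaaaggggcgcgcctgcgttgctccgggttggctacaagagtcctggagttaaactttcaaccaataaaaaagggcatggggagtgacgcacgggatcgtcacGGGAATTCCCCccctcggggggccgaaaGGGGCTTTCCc
Tnfaip3 (chr10:19015411-19015660, minus strand): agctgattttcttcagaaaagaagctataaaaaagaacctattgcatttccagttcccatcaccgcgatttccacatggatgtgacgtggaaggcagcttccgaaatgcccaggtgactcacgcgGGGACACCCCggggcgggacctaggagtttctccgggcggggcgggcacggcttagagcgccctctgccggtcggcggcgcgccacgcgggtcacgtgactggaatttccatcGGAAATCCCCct
The match began 29 bases before the start site in Nfkbia and 106 bases before it in Nfkbie. In Rel the overlapping matches began 92 and 91 bases before the start site. Nfkb2 had 3 matches in the window shown, the outermost beginning 39 and 11 bases before the start site, and at least 1 match in each of its 3 windows, and Tnfaip3 had matches beginning 125 and 12 bases before its start. A match of letters describes the sequence and does not show binding.

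Levels of the members spanned a wide range. Divided by the length of all annotated exons, the highest over all samples were Unc93b1, which carries the nucleic acid-sensing TLRs to the endosome, Nfkbia, the main cytoplasmic inhibitor of NF-kB, and Irf5, a transcription factor activated below Myd88. Unc93b1 had 274 ± 66.7 CPM per kb in BM (SD, n = 6) and 205 ± 61.5 in spleen (SD, n = 3). Nfkbia had 78.5 ± 12.6 CPM per kb in BM (SD, n = 6) and 222 ± 43.5 in spleen (SD, n = 3), and ranked 4 of 40 in BM but 1 in spleen. Irf5 had 105 ± 27.1 CPM per kb in BM (SD, n = 6) and 137 ± 47.5 in spleen (SD, n = 3), a level within the spread of that of Ly86 in BM (110.2 ± 20.1 CPM per kb, SD, n = 6). Myd88 came next, with 49.4 ± 3.48 CPM per kb in BM (SD, n = 6) and 73.1 ± 12.5 in spleen (SD, n = 3). The lowest over all samples were Traf3, Tnfaip3 and Tab3. Traf3, which restrains the noncanonical branch, had 1.44 ± 0.481 CPM per kb in BM (SD, n = 6) and 2.39 ± 0.492 in spleen (SD, n = 3). Tnfaip3, a ubiquitin-editing inhibitor of NF-kB, had 1.11 ± 0.498 CPM per kb in BM (SD, n = 6) and 2.77 ± 2.40 in spleen (SD, n = 3). Tab3, a ubiquitin-binding partner of TAK1, had 0.676 ± 0.268 CPM per kb in BM (SD, n = 6), was at 0.821 in KO spleen sample 1, and had 0 counts in the other 2 spleen samples. In BM the mean ± SD ranges of Traf3 and Tnfaip3 overlapped, as did those of Tnfaip3 and Tab3. Traf1 was the lowest of the 40 in BM, at 0.675 ± 0.316 CPM per kb (SD, n = 6), next to Tab3, and ranked 15 in spleen, at 17.1 ± 7.87 (SD, n = 3). The plot of all members by sample gives every value on the CPM scale.

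**Figure D1:**
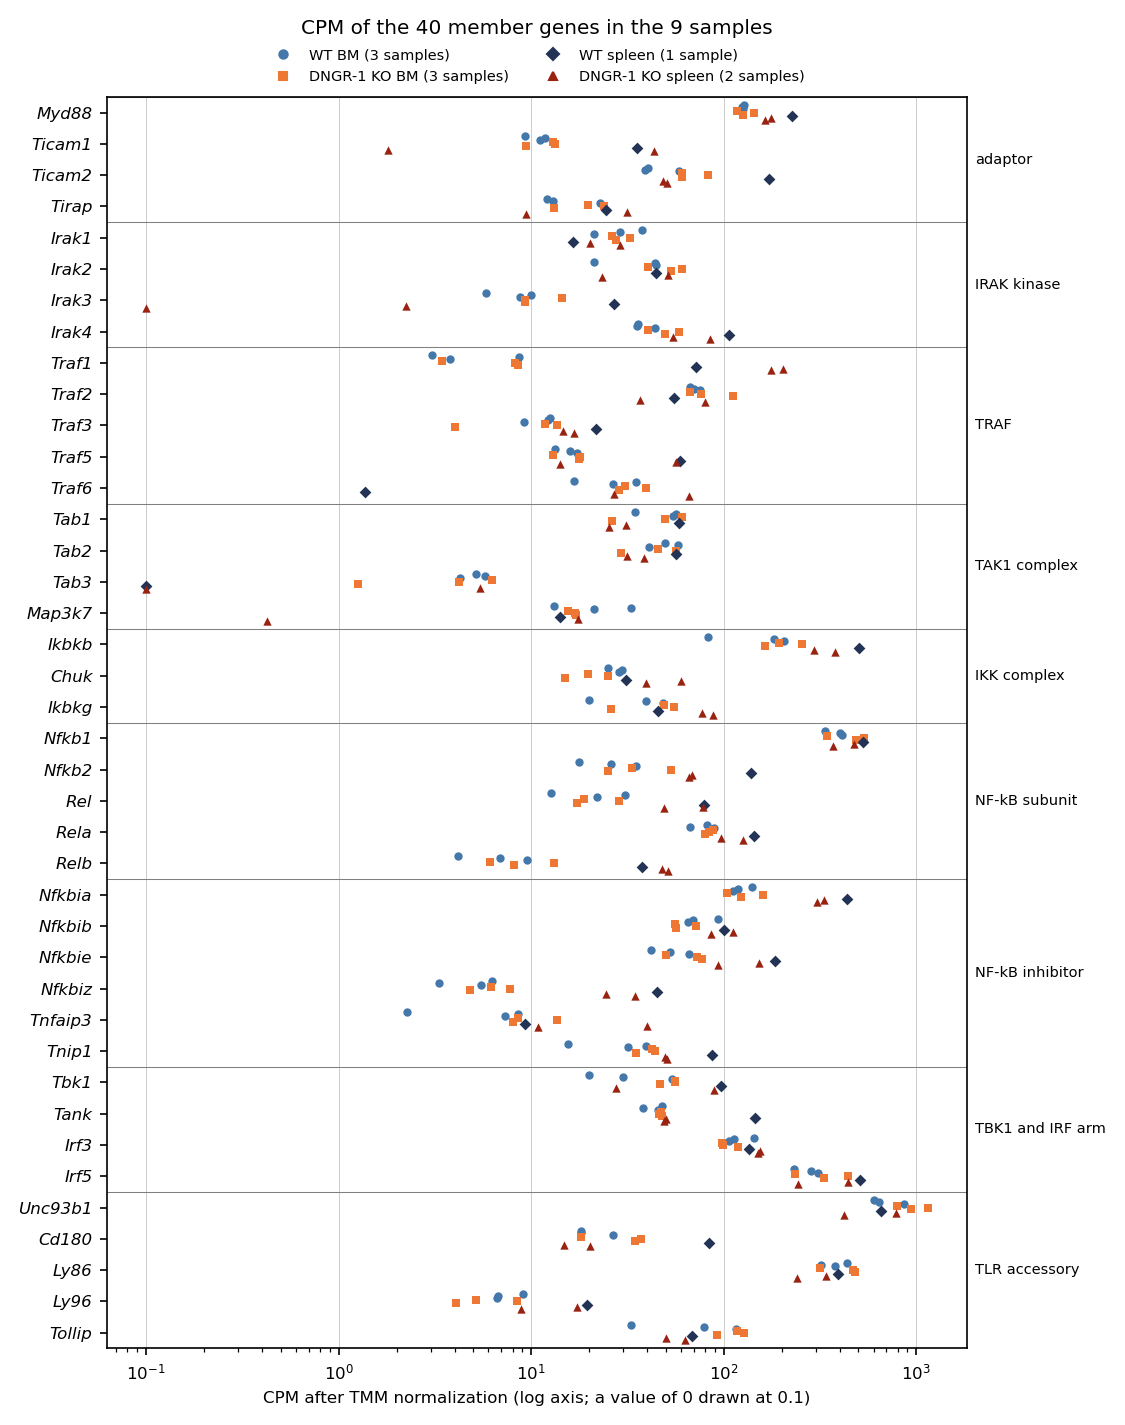
CPM after TMM normalization (log axis) of the 40 members in each of the 9 samples, ordered by role, with WT BM, KO BM, WT spleen and KO spleen samples as separate symbols and values of 0 drawn at 0.1. Traf1, Relb, Nfkbiz and Nfkbia show all 3 spleen samples to the right of all 6 BM samples, and Irak3, Tab3, Traf6, Map3k7 and Ticam1 each have at least 1 spleen sample far to the left.

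The spleen pre-cDC samples had more RNA of the NF-kB subunits Relb, Rel and Nfkb2 than the BM pre-cDC samples. The same held for the inhibitors Nfkbia, Nfkbie and Nfkbiz and for Traf1. Which cells in these samples held this RNA was not tested. Of the 40 members, 11 were higher in spleen at an edgeR adjusted p under 0.05 and 0 were lower, where 7.28% of the 13468 genes tested were higher and 12.3% were lower. At an unadjusted p under 0.05 there were 17 members, all higher, against 12.6% of genes higher and 21% lower, and DESeq2 called 16 members higher and 0 lower, against 11.7% and 17.6% of genes. The 11 were Traf1, Nfkbia, Nfkbiz, Relb, Rel, Nfkbie, Nfkb2, Myd88, Ikbkb, Traf5 and Irak4, in order of p. The median log2 fold change of the members was 0.60, against -0.18 over all genes tested. Every spleen sample was above every BM sample for 14 members, against 9.15% of genes, and below for 0 members, against 17.4% of genes. By role, 3 of 5 NF-kB subunits, 3 of 6 inhibitors, 2 of 5 TRAFs, 1 of 3 IKK subunits, 1 of 4 adaptors and 1 of 4 IRAK kinases were higher, and 0 of 4 members of the TAK1 complex, 0 of 4 of the TBK1 and IRF arm and 0 of 5 TLR accessory proteins. The number higher fell to 6 without the WT spleen sample (Chuk, Nfkbia, Nfkbiz, Rel, Relb and Traf1), where 5.62% of genes were higher, and to 6 without WT BM sample 2 (5.73% of genes). It was 7 without WT BM sample 3 (5.72% of genes), KO BM sample 1 (5.13%) or KO BM sample 3 (5.76%). With the KO samples alone, 4 members were higher, Nfkbia, Nfkbiz, Relb and Traf1, against 3.71% of genes. With the replicate number as a block, 5 were higher, these 4 and Nfkbie, against 3.19% of genes.

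**Figure D2:**
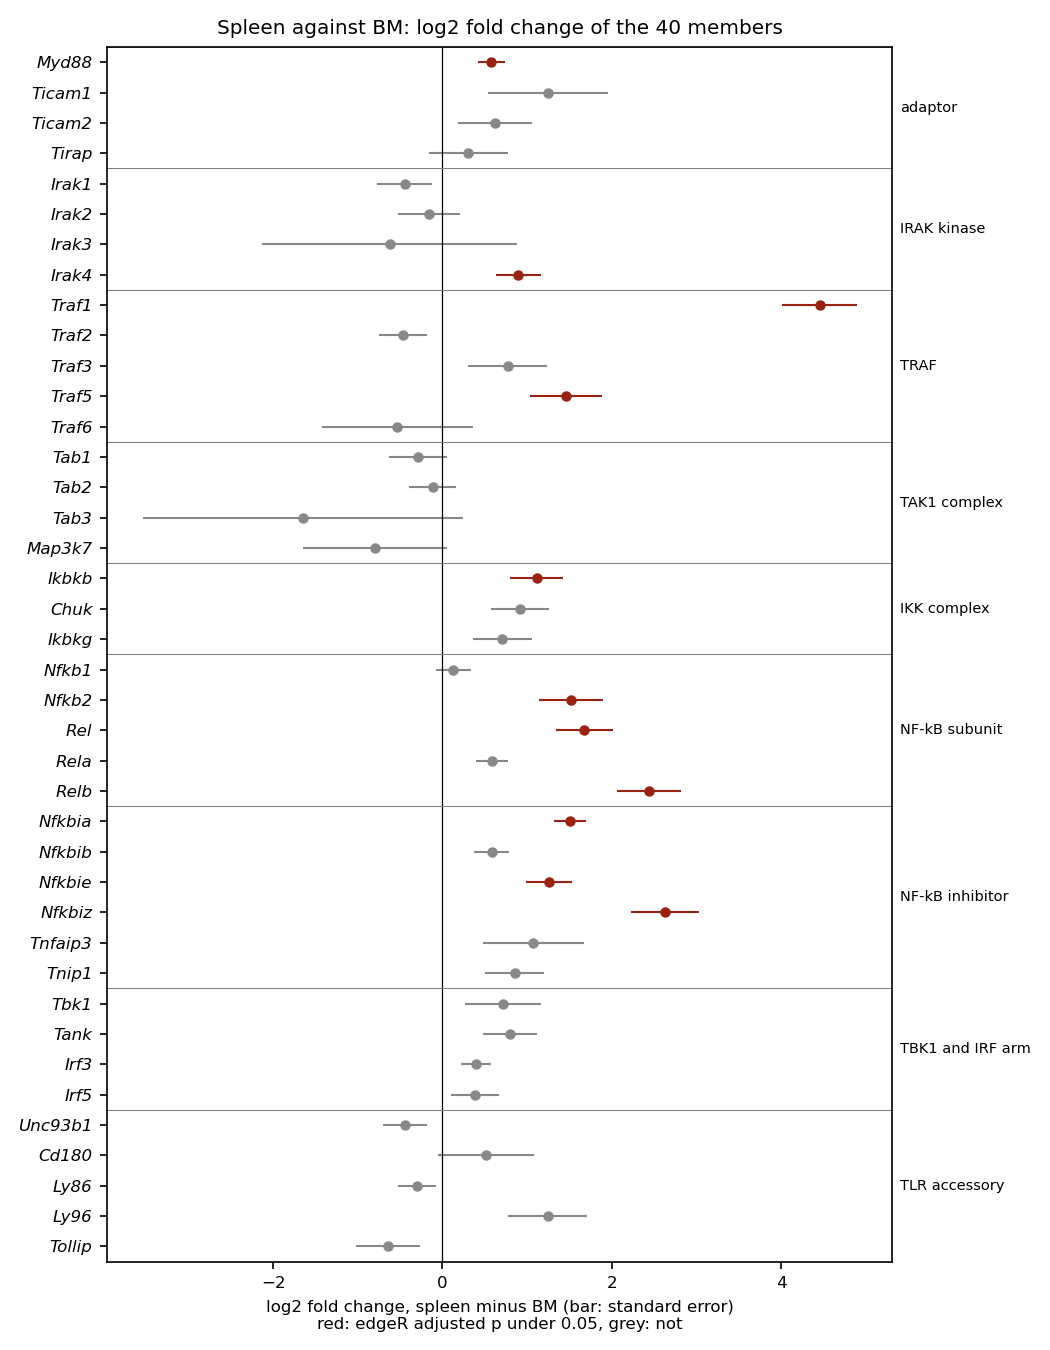
Log2 fold change of each member in spleen relative to BM with its standard error, from the fit over all 9 samples, grouped by role, red where the edgeR adjusted p was under 0.05. The 11 red points lie between 0.57 for Myd88 and 4.46 for Traf1, and the 4 members of the TAK1 complex all lie below 0 without passing the threshold.

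Other cells and states moved with tissue. Of the 12 pre-cDC and cDC markers, 1 was higher in spleen, Xcr1 by 21.8-fold (edgeR adjusted p = 0.00331). Irf8 was lower, by 2.54-fold (edgeR adjusted p = 0.0202), and the others did not pass. Summed CPM of 7 T cell markers was 3.43 to 14.2 in BM and 844 to 3492 in spleen, with all 7 above 3 counts in every spleen sample. Summed CPM of 6 NK cell markers was 29.3 to 87.7 in BM and 562 to 972 in spleen, where 4 were above 3 counts in every sample. Klrd1 made up most of this sum in every sample, at 29.3 to 87.7 CPM in BM and 456 to 580 CPM in spleen. All 4 NK cell markers tested were higher in spleen, but Gzma, Prf1 and Eomes had at most 2 counts in any BM sample. They passed the filter on low counts only through the spleen samples, so their calls add no support. Ncr1 had 0 counts in every BM sample and in the WT spleen sample. Klrb1c had 0 counts in the WT spleen sample and KO spleen sample 2. The 6 erythroid markers summed to 47.1 to 308 CPM in BM and 8743 to 50976 in spleen, and the 10 macrophage and monocyte markers to 202 to 777 and 483 to 899. Csf1r made up most of this last sum in BM, and 4 of the 9 macrophage and monocyte markers tested were higher in spleen, Adgre1 by 19.5-fold, C1qa by 28.6-fold, C1qb by 42.01-fold and Vcam1 by 49.4-fold. The 8 neutrophil markers ran the other way, at 853 to 2681 CPM in BM and 0 to 0.977 in spleen, with 4 of them at 0 in every spleen sample, as did 5 cell cycle genes, at 1989 to 2595 and 29.6 to 96.9. Among B cell genes, Ighm was at 851 to 1361 CPM in BM and 678 to 964 in spleen, and Cd79b at 37.2 to 58.4 and 25.4 to 37.2. In spleen, Ms4a1 had 0 counts in the WT and 213 and 222 counts in the KO libraries, Fcer2a 256 and Cd79a 49 counts in 1 KO spleen sample each and at most 1 in the other 2, and Pax5 and Cr2 0 in all 3. The sort excluded cells stained for CD3, Ly6G or Ter119. In bulk RNA, fewer cells of a type and less RNA per cell cannot be told apart, and the part of these cells in the changes of the members was not tested. KO spleen sample 2 had the highest T cell and NK cell sums of the 3 spleen samples, all of which had T cell sums of at least 844 CPM. Its values rest on 1 library, and the part of these cells in them was not tested. Of the 3 spleen samples it was the lowest for Nfkbia, Rel, Nfkbie, Nfkb2, Myd88 and Traf5 and the highest for Relb. For Traf1, Nfkbiz, Ikbkb and Irak4 it lay between the other spleen samples. Without it 10 members were higher in spleen, against 7.86% of genes. They were Traf1, Nfkbia, Nfkbiz, Relb, Rel, Nfkbie, Nfkb2, Myd88, Traf5 and Ly96.

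Among the TLR adaptors, only Myd88, the adaptor of most TLRs and of the interleukin-1 receptor family, passed the threshold. The gene lies at chr9:119335934-119341411 (GRCm38). Myd88 was at 117 to 144 CPM in the BM samples, with a median of 125, and at 225 CPM in the WT spleen sample and 175 and 165 CPM in the KO spleen samples. The 3 spleen samples lay above all 6 BM samples, by 1.49-fold, a log2 fold change of 0.57 ± 0.16 (SE; edgeR adjusted p = 0.0328). Its call was lost without the WT spleen sample, WT BM sample 2, WT BM sample 3, KO BM sample 1 or KO BM sample 3, each alone. Blocked by replicate number, the edgeR adjusted p of Myd88 was 0.135. Ticam1, the adaptor of Tlr3, and Tirap, which brings Myd88 to the membrane, had spleen samples on both sides of the BM range. Ticam1 was at 1.80 CPM in KO spleen sample 1 and at 35.4 and 43.3 CPM in the other 2, against 9.34 to 13.4 in BM.

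Of the IRAK kinases, Irak4 (chr15:94543643-94581815), which starts the kinase cascade on Myd88, was higher in spleen. Irak4 was at 35.5 to 58.6 CPM in the BM samples, with a median of 42.3, and at 107 CPM in the WT spleen sample and 54.3 and 84.9 CPM in the KO spleen samples. The lowest spleen sample lay inside the BM range, and the difference was 1.86-fold, a log2 fold change of 0.90 ± 0.27 (SE; edgeR adjusted p = 0.045). This call held in only 2 of 9 fits that left out a sample, those without KO BM sample 2 and without KO spleen sample 1. Blocked by replicate number, the edgeR adjusted p of Irak4 was 0.136. Irak1 and Irak2, its partner kinases, had log2 fold changes of -0.45 ± 0.33 and -0.16 ± 0.37 (SE), and Irak3, which inhibits the cascade, was at 26.8 CPM in the WT spleen sample, 2.25 in KO spleen sample 1 and 0 in sample 2, against 5.81 to 14.4 CPM in BM.

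Traf1, an adaptor of the TNF receptor family that is itself an NF-kB target, had the lowest p of all members. The gene lies at chr2:34941750-34961772 (GRCm38). Traf1 was at 3.05 to 8.68 CPM in the BM samples, with a median of 6.01, and at 71.97 CPM in the WT spleen sample and 204 and 176 CPM in the KO spleen samples. Even the lowest spleen sample was above every BM sample, and the difference was 21.9-fold, a log2 fold change of 4.46 ± 0.44 (SE; edgeR adjusted p = 0.000287). Traf1 passed in all 9 fits that left out a sample, with log2 fold changes from 4.23 to 4.81. Traf5 (chr1:191997205-192092559), which also serves TNF family receptors, was at 12.9 to 18.01 CPM in the BM samples, with a median of 16.6, and at 59.03 CPM in the WT spleen sample and 56.8 and 14.2 CPM in the KO spleen samples. KO spleen sample 2 lay inside the BM range, and the difference was 2.74-fold, a log2 fold change of 1.46 ± 0.42 (SE; edgeR adjusted p = 0.0405); without any 1 sample other than KO spleen sample 2 the call was lost. Blocked by replicate number, the edgeR adjusted p of Traf5 was 0.131. Traf2 and Traf3 did not pass, with log2 fold changes of -0.46 ± 0.28 and 0.77 ± 0.46 (SE), although every spleen sample was above every BM sample for Traf3, at 21.6 CPM in the WT spleen sample and 14.6 and 16.6 CPM in the KO spleen samples against 4.01 to 13.7 CPM in BM. Traf6, the ubiquitin ligase below the IRAKs, was spread over 1.37 to 66.3 CPM in spleen and is described with the genotypes.

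The TAK1 complex, the kinase Map3k7 (TAK1) with its binding partners Tab1, Tab2 and Tab3, had all 4 log2 fold changes below 0 and none past the threshold. Tab1 and Tab2 had log2 fold changes of -0.29 ± 0.35 and -0.12 ± 0.28 (SE). Map3k7 was at 14.1 and 17.6 CPM in the WT spleen sample and KO spleen sample 1 but at 0.425 CPM, 10 counts, in sample 2, against 13.1 to 33.00 CPM in BM. Tab3 was at 5.45 CPM in KO spleen sample 1 and at 1.25 to 6.27 CPM in BM, and without that spleen sample it was lower in spleen.

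In the IKK complex, Ikbkb (chr8:22659212-22706589), the catalytic subunit of the canonical branch, was higher in spleen. Ikbkb was at 82.99 to 256 CPM in the BM samples, with a median of 187, and at 502 CPM in the WT spleen sample and 294 and 379 CPM in the KO spleen samples. All 3 spleen samples lay above the BM samples, by 2.17-fold, a log2 fold change of 1.12 ± 0.31 (SE; edgeR adjusted p = 0.0343). The call of Ikbkb held in 3 of 9 fits that left out a sample and was lost without the WT spleen sample, KO spleen sample 2, WT BM sample 2, WT BM sample 3, KO BM sample 1 or KO BM sample 3. Blocked by replicate number, the edgeR adjusted p of Ikbkb was 0.0878. Chuk, the catalytic subunit of the noncanonical branch, was also above BM in every spleen sample, at 31.2 CPM in the WT spleen sample and 60.05 and 39.5 CPM in the KO spleen samples against 15.00 to 29.5 CPM, a log2 fold change of 0.92 ± 0.34 (SE; edgeR adjusted p = 0.0901). It passed without the WT spleen sample and with DESeq2. Ikbkg, the regulatory subunit, had a log2 fold change of 0.71 ± 0.35 (SE).

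Of the NF-kB subunits, Relb, Rel and Nfkb2 were higher in spleen. Rela and Nfkb1, which form the classical heterodimer, did not pass, and the difference between the subunits was not tested. Relb, the partner of Nfkb2 in the noncanonical branch, lies at chr7:19606217-19629438. Relb was at 4.19 to 13.1 CPM in the BM samples, with a median of 7.52, and at 37.6 CPM in the WT spleen sample and 47.9 and 51.1 CPM in the KO spleen samples. The groups were far apart, by 5.44-fold, a log2 fold change of 2.44 ± 0.38 (SE; edgeR adjusted p = 0.00259), and Relb passed in all 9 fits that left out a sample. Rel (chr11:23736847-23770970), whose promoter is shown above, was at 12.6 to 30.8 CPM in BM, with a median of 20.4, and at 79.1 CPM in the WT spleen sample and 78.5 and 48.7 CPM in the KO spleen samples. The difference was 3.20-fold, a log2 fold change of 1.68 ± 0.33 (SE; edgeR adjusted p = 0.00785), with no overlap between the tissues, and it passed in all 9 fits that left out a sample, but not with the KO samples alone (edgeR adjusted p = 0.0558) or with the replicate number as a block (edgeR adjusted p = 0.0513). Nfkb2 (chr19:46304320-46312385), the precursor of the noncanonical subunit, was at 17.7 to 53.4 CPM in BM, with a median of 29.7, and at 139 CPM in the WT spleen sample and 68.4 and 65.7 CPM in the KO spleen samples. Its difference was 2.86-fold, a log2 fold change of 1.52 ± 0.38 (SE; edgeR adjusted p = 0.0215), also without overlap, and the call was lost without the WT spleen sample, without WT BM sample 2 or with the replicate number as a block (edgeR adjusted p = 0.0926). Rela was above BM in every spleen sample, at 143 CPM in the WT spleen sample and 96.5 and 126 CPM in the KO spleen samples against 66.5 to 89.3 CPM, a log2 fold change of 0.59 ± 0.19 (SE; edgeR adjusted p = 0.0546). Rela was called higher with DESeq2, with RLE size factors, on the VST values, without the genotype covariate and without KO spleen sample 1. Nfkb1, at 34.7 ± 6.56 CPM per kb the highest subunit in BM per length (SD, n = 6), had a log2 fold change of 0.13 ± 0.21 (SE; edgeR adjusted p = 0.738). Whether counting used strand is not known, and annotated exons of Nfkb2 share 6.52% of their bases with Psd on the opposite strand, those of Myd88 11.3% with Acaa1a and those of Irak4 7.87% with Twf1.

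Of the inhibitors, the NF-kB-inducible Nfkbia, Nfkbie and Nfkbiz were higher in spleen. Nfkbia (chr12:55489410-55492647) was at 104 to 159.6 CPM in BM, with a median of 121, and at 437 CPM in the WT spleen sample and 333 and 304 CPM in the KO spleen samples. The lowest spleen sample was far above the highest BM sample, and the difference was 2.85-fold, a log2 fold change of 1.51 ± 0.19 (SE; edgeR adjusted p = 0.000942). Nfkbiz (chr16:55811375-55838899), an atypical inhibitor that works in the nucleus, was at 3.33 to 7.76 CPM in BM, with a median of 5.84, and at 45.3 CPM in the WT spleen sample and 24.6 and 34.8 CPM in the KO spleen samples. Its difference was 6.18-fold, a log2 fold change of 2.63 ± 0.40 (SE; edgeR adjusted p = 0.00245), and both genes passed in all 9 fits that left out a sample. Nfkbie (chr17:45555703-45563169), a second cytoplasmic inhibitor with an inducible gene, was at 41.7 to 77.1 CPM in BM, with a median of 59.4, and at 184 CPM in the WT spleen sample and 153 and 93.1 CPM in the KO spleen samples. The tissues did not overlap, the difference was 2.39-fold, a log2 fold change of 1.26 ± 0.27 (SE; edgeR adjusted p = 0.0117), and the call was lost without the WT spleen sample. Nfkbib, a cytoplasmic inhibitor less dependent on induction, had a log2 fold change of 0.58 ± 0.21 (SE; edgeR adjusted p = 0.0789). Tnfaip3 and its partner Tnip1, which carry kappaB matches too, had log2 fold changes of 1.07 ± 0.60 and 0.85 ± 0.35 (SE), neither past the threshold. Tnfaip3 was high in a single spleen sample, at 9.24 CPM in the WT spleen sample and 40.03 and 10.8 CPM in the KO spleen samples, against 2.28 to 13.6 CPM in BM.

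**Figure D3:**
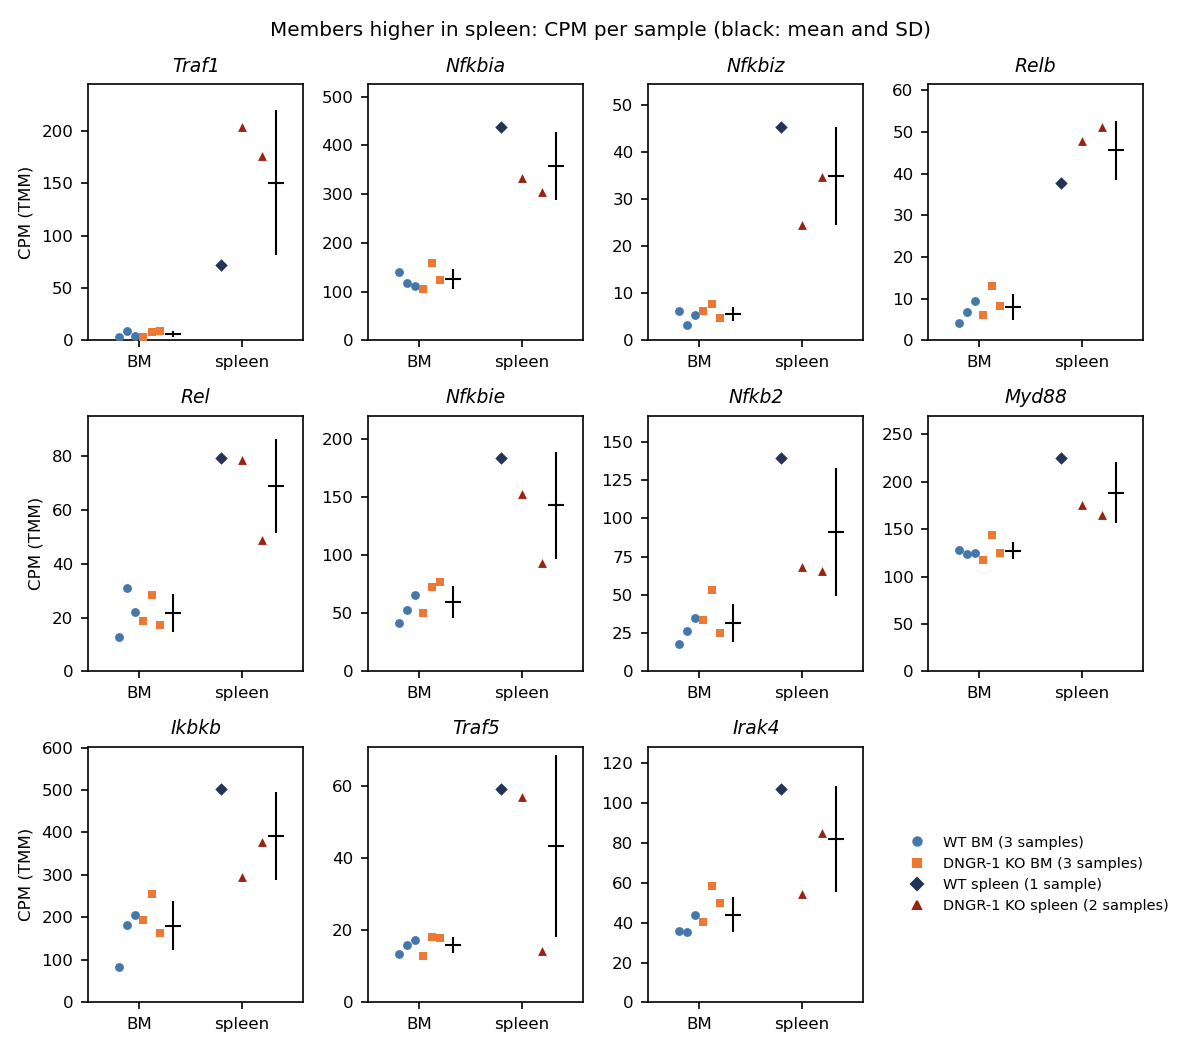
CPM after TMM normalization of the 11 members higher in spleen, 1 panel for each gene with its own axis from 0, with each sample as a symbol and the mean and SD of each tissue in black (n = 6 for BM, n = 3 for spleen). The tissues do not overlap in 9 of the 11 panels, and in those of Traf5 and Irak4 the lowest spleen sample lies among the BM samples.

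The 4 genes of the TBK1 and IRF arm, which leads to interferon genes, all had log2 fold changes above 0 and none passed. They were 0.71 ± 0.45 for the kinase Tbk1, 0.80 ± 0.32 for its scaffold Tank, and 0.40 ± 0.18 and 0.39 ± 0.28 for the transcription factors Irf3 and Irf5 (SE). Tank was above BM in every spleen sample, at 146 CPM in the WT spleen sample and 50.2 and 49.00 CPM in the KO spleen samples against 37.9 to 47.9 CPM, but only the WT sample stood clear of that range. Among the TLR accessory proteins, Unc93b1, Ly86 and Tollip had log2 fold changes of -0.44 ± 0.26, -0.31 ± 0.23 and -0.65 ± 0.37 (SE), and Cd180 and Ly96, which pair with Ly86 and Tlr4, of 0.51 ± 0.57 and 1.24 ± 0.46 (SE). None of the 5 passed the threshold.

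Genes around the members were counted in the same fit, where 7.28% of all genes tested were higher in spleen and 12.3% lower. These lists, like the members, were chosen with earlier results of these data known. Of 11 TLR genes tested, 5 were higher in spleen (Tlr1, Tlr2, Tlr7, Tlr11 and Tlr13) and 1 was lower, Tlr5, which had 0 counts in every spleen sample. Of 18 other regulators of NF-kB, 5 were higher and 0 lower, among them Birc3, which restrains the noncanonical kinase, with 45.99 ± 12.4 CPM in BM and 107 ± 22.1 CPM in spleen (SD, n = 6 and 3), and Bcl3, a nuclear partner of the NF-kB subunits, with 8.30 ± 2.88 CPM in BM and 25.9 ± 5.14 CPM in spleen. Of 9 receptors outside the TLR family that signal to NF-kB, Cd40 and Il1rap were higher and 0 were lower. Of the 12 NF-kB target genes tested out of 18 listed, 8 were higher and 0 lower. They included Ccr7, the chemokine receptor of mature dendritic cells, with 5.65 ± 2.95 CPM in BM and 173 ± 126 CPM in spleen, Icam1, an adhesion molecule, with 51.5 ± 16.7 CPM in BM and 175 ± 17.99 CPM in spleen, and Junb, a transcription factor, with 95.6 ± 22.8 CPM in BM and 333 ± 50.5 CPM in spleen (SD, n = 6 and 3). Bcl2a1a, also among the 8, had at most 16 counts in a BM sample and passed the filter on low counts only through spleen. Il12b, a listed target that was not tested and was singled out after its values were seen, had 0 counts in every BM sample and in KO spleen sample 1, and 398 and 477 counts in the other spleen samples. Without the WT spleen sample the numbers higher were 1 of 12 TLR genes, 4 of 18 other regulators, 1 of 9 receptors, with 1 lower, and 7 of 12 targets. In that fit 5.62% of all genes tested were higher and 10.2% lower. Ccr7 and Junb are also expressed by T cells.

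Of the 8 members with a promoter window that were higher in spleen, 4 held a kappaB match (Nfkb2, Rel, Nfkbia and Nfkbie), as did 5 of the 24 with a window that were not called (20.8%). Traf1, Myd88, Traf5 and Irak4 had no match in the windows searched. All genes with a window held a match in 5.14%.

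In BM, no member passed the test between genotypes. All 40 were tested among 13016 genes, and 0 were higher and 0 lower in KO at an edgeR adjusted p under 0.05, where 0.0154% of genes were higher and 0.0154% lower. At an unadjusted p under 0.05 the count was 0 with edgeR, where 3.83% of genes passed, 0 with DESeq2 and 1 with limma-voom. The share of all genes was not counted for DESeq2 and limma-voom. The adjusted p was 0.861 or more for every member. Log2 fold changes ran from -0.48 for Chuk to 0.72 for Tnfaip3, 29 of 40 were above 0, and the median was 0.25, against -0.0045 over all genes tested. WT BM sample 1 was the lowest of the 6 BM samples in 20 members, as it was in 28.1% of all genes tested, and KO BM sample 2 was the highest in 23 members, as it was in 20.8% of genes. The median was nearer to 0 without any of 3 libraries, at 0.16 without WT BM sample 1, 0.098 without KO BM sample 2 and 0.19 without KO BM sample 3. The summed CPM of 10 macrophage and monocyte markers was 202 to 548 in the WT samples, lowest in sample 1, and 553 to 777 in the KO samples, highest in sample 2. Csf1r made up most of this sum, at 160 to 489 CPM in the WT samples and 487 to 707 CPM in the KO samples. Of the 7 of these markers tested, 0 passed between BM genotypes. The summed CPM of the 12 pre-cDC and cDC markers was 4381 to 5994 in the WT samples, lowest in sample 2. In the KO samples it was 4715 to 6925, again highest in sample 2. The part of either sum in the lean was not tested. By role, the log2 fold changes were above 0 in 4 of 4 adaptors, 4 of 5 TRAFs, 4 of 5 NF-kB subunits and 5 of 6 inhibitors, and in 0 of 4 members of the TAK1 complex.

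**Figure D4:**
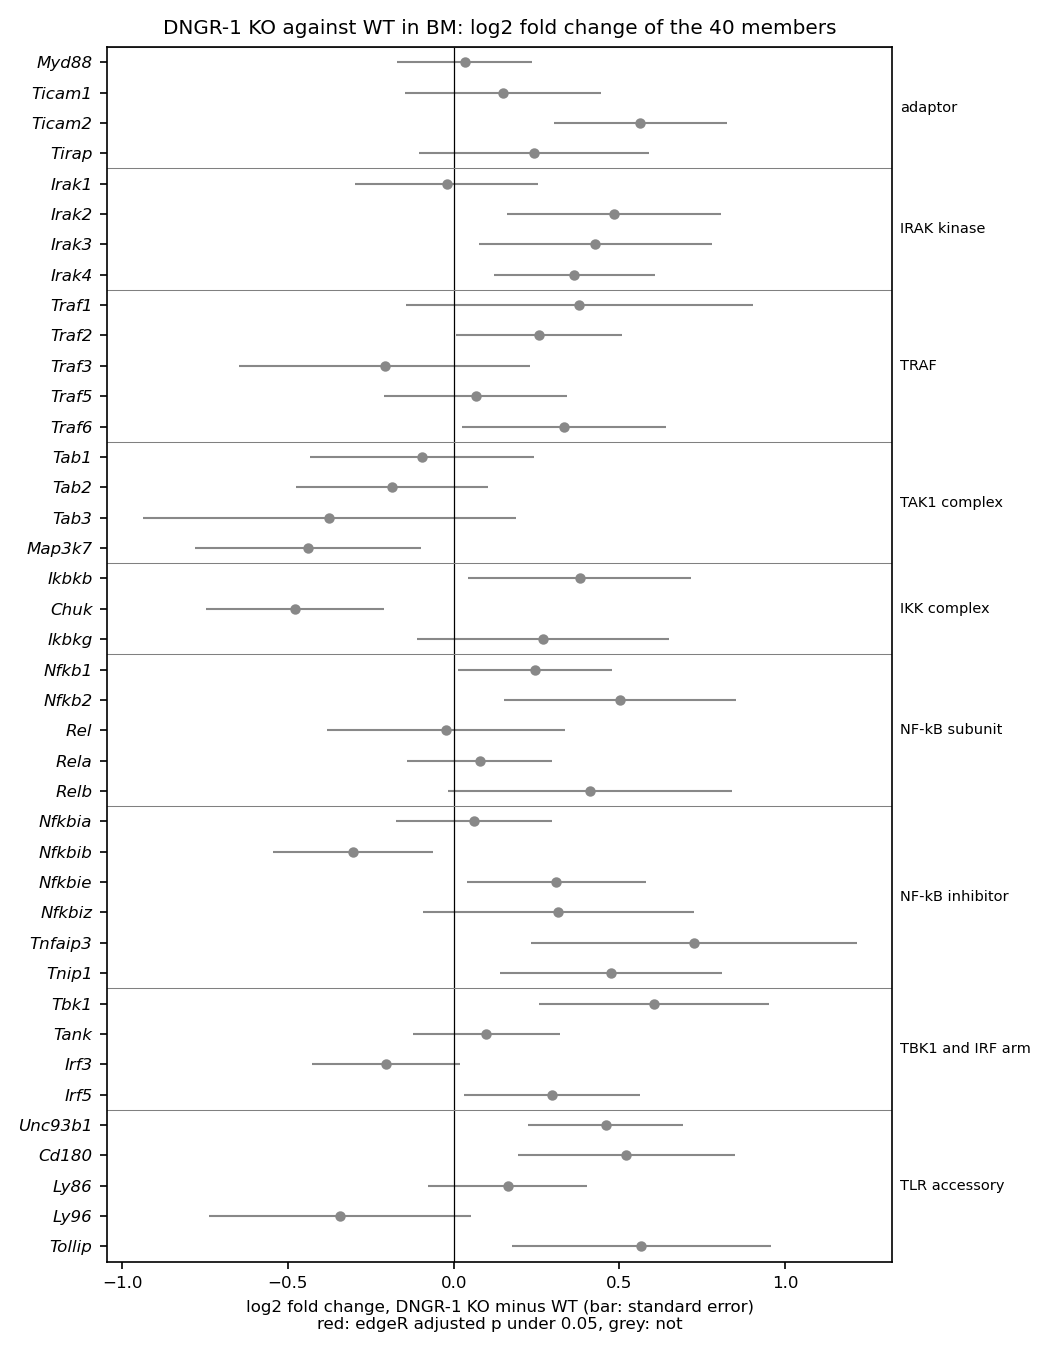
Log2 fold change of each member in KO relative to WT BM pre-cDCs with its standard error, from the fit over 6 BM samples, grouped by role. All 40 points are grey, as none had an edgeR adjusted p under 0.05, and 29 of 40 lie above 0.

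Every KO sample was above every WT sample for 1 member, Ticam2, against 4.79% of genes, and below for 1, Chuk, against 4.75%. Ticam2, the adaptor that links Tlr4 to Ticam1, was at 40.5, 39.03 and 58.2 CPM in the WT samples and 60.4, 83.3 and 60.4 CPM in the KO samples, a log2 fold change of 0.56 ± 0.26 (SE; edgeR adjusted p = 0.861). Annotated exons of Ticam2 share 14.5% of their bases with Tmed7 on the same strand, and reads of the 2 genes could have been divided between them in counting. Chuk was at 25.1, 29.5 and 28.5 CPM in the WT samples and 19.7, 25.1 and 15.00 CPM in the KO samples, and WT sample 1 and KO sample 2 differed by little. Its log2 fold change was -0.48 ± 0.27 (SE; edgeR adjusted p = 0.861). The smallest p that a two-sided exact permutation test of 3 against 3 samples can give is 0.1. Groups without overlap, the pattern both genes were picked for, give that value by design, so it adds no support.

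The other members among the 5 lowest p-values were Unc93b1, Tbk1 and Cd180. Unc93b1 was at 601, 639 and 858 CPM in the WT samples and 797, 1147 and 944 CPM in the KO samples, a log2 fold change of 0.46 ± 0.23 (SE; edgeR adjusted p = 0.861). A WT sample lay among the KO samples. Tbk1, the kinase of the interferon arm, was at 19.9, 30.1 and 53.9 CPM in the WT samples and 55.8, 55.98 and 46.4 CPM in the KO samples, a log2 fold change of 0.60 ± 0.35 (SE; edgeR adjusted p = 0.861). WT samples 1 and 2 were low, while WT sample 3 was at the level of the KO samples. Cd180, a TLR-like surface receptor, was at 18.1, 18.03 and 26.5 CPM in the WT samples and 18.04, 37.3 and 34.7 CPM in the KO samples, a log2 fold change of 0.52 ± 0.33 (SE; edgeR adjusted p = 0.861). The groups overlapped, and the members higher in spleen, such as Traf1, Nfkbia and Relb, had BM genotype log2 fold changes of 0.38 ± 0.52, 0.061 ± 0.24 and 0.41 ± 0.43 (SE). The genotype difference includes whatever differs between the CD45 congenic strains, and 0 members lie in the chromosome 1 interval scored for this. That score did not follow genotype. WT BM sample 1 scored lowest, at -0.312, while WT BM sample 2 scored 0.110 and WT BM sample 3 scored 0.140. KO BM scores lay inside this range: 0.0741 (sample 1), 0.102 (sample 2), -0.114 (sample 3). As a covariate, the score therefore could not take out the congenic background. With it, 0 members passed and 5 had an unadjusted edgeR p under 0.05. The share of all genes in that fit was not counted, so the 5 cannot be read as a result about the members.

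In spleen, where there was 1 WT sample and no test was made, both KO samples were below the WT sample for 24 of 40 members, against 28.8% of genes, and above it for 8, against 33.2%. The median log2 difference of the members from the WT sample was -0.24 in KO sample 1 and -0.48 in sample 2, against 0 over all genes kept. Past a log2 difference of 1 in both KO samples, 2 members were higher, Traf1 and Traf6, where 15.1% of the 13468 genes were higher, and 5 were lower, Ticam2, Irak3, Nfkb2, Tank and Cd180, where 7.69% of genes were lower. KO samples 1 and 2 themselves differed by a log2 value of at least 1 in 11 members and in 39.6% of genes. With sample 2 alone 2 members were higher and 11 lower past the fold, against 25.7% and 16.9% of genes, and with sample 1 alone 4 and 7, against 24.3% and 15.5%.

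Traf6 was at 1.37 CPM in the WT sample and 26.9 and 66.3 CPM in the KO samples. The WT value rests on 23 counts (95% exact Clopper-Pearson interval 0.869 to 2.06 CPM, which covers counting error only), and the folds were 19.6 and 48.4, log2 differences of 4.20 and 5.49. The WT spleen value was low against every other sample of the series, since the BM samples were at 16.8 to 39.5 CPM, and the WT spleen library is the one that lacked 6.07% of well-measured genes; the part of that loss was not tested. Traf1 was at 71.97 CPM in the WT sample and 204 and 176 CPM in the KO samples, folds of 2.83 and 2.44, and all 3 were above the BM range.

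The 5 members past the fold downwards included Irak3, the inhibitory member of the IRAK family. It was at 26.8 CPM in the WT sample and 2.25 and 0 CPM in the KO samples, from 449, 40 and 0 counts, which is 11.9-fold lower in sample 1 and at least 210.2-fold lower in sample 2, set against 3 counts per library. KO spleen sample 2 lacked 1.82% of well-measured genes, and the part of such a loss in its 0 counts of Irak3 was not tested. Irak3 in BM was at 5.81 to 14.4 CPM, so the WT spleen sample was above and both KO spleen samples were below the BM range. Cd180 was at 83.8 CPM in the WT sample and 14.7 and 20.1 CPM in the KO samples, log2 differences of -2.50 and -2.05, and the BM samples were at 18.03 to 37.3 CPM. Ticam2 was at 172 CPM in the WT sample and 48.3 and 50.8 CPM in the KO samples, log2 differences of -1.83 and -1.76, and Tank at 146 CPM in the WT sample and 50.2 and 49.00 CPM in the KO samples, log2 differences of -1.54 and -1.57. For Ticam2 and Tank the 2 KO spleen samples were close to each other and to the BM levels, and the WT spleen sample stood apart as the highest of all 9. Nfkb2 was at 139 CPM in the WT sample and 68.4 and 65.7 CPM in the KO samples, log2 differences of -1.02 and -1.08, just past the fold. Just short of it were Tab1, at -0.92 and -1.20, Tnip1, at -0.81 and -0.79, and Ikbkg, at 0.77 and 0.95. The 5 members past the fold other than Traf6 and Irak3 had at least 262 counts in each spleen sample.

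Members on opposite sides of the WT sample in the KO spleen samples included Ticam1, at 35.4 CPM in the WT sample and 1.80 and 43.3 CPM in the KO samples, Traf2, at 55.2 CPM in the WT sample and 36.8 and 80.4 CPM in the KO samples, and Tirap, at 24.3 CPM in the WT sample and 31.4 and 9.43 CPM in the KO samples. Traf5 and Map3k7 were close to the WT sample in KO sample 1 and below it in sample 2, by log2 differences of -2.05 and -4.75. Of the inhibitors higher in spleen than in BM, Nfkbia, Nfkbie and Nfkbiz were all below the WT sample in both KO samples, by log2 differences of -0.39 and -0.52, -0.26 and -0.98 and -0.88 and -0.38. Relb was above it, by 0.35 and 0.44. With a single WT sample, genotype and library cannot be told apart in spleen.

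**Figure D5:**
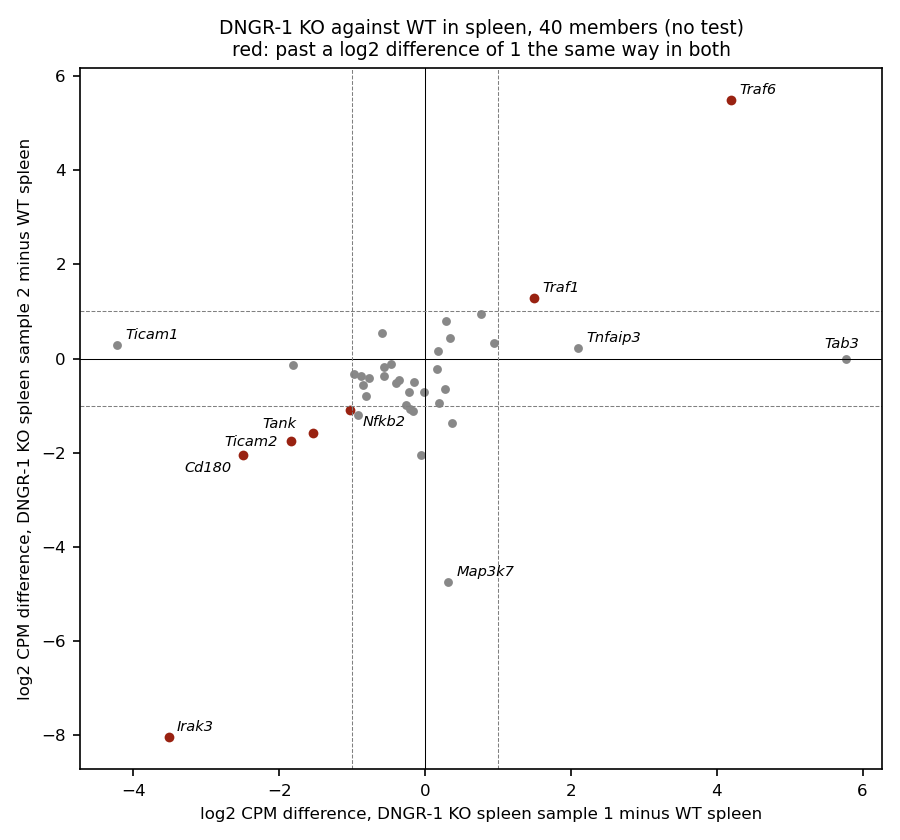
Log2 CPM difference from the WT spleen sample of each of the 40 members, KO spleen sample 1 on the horizontal and sample 2 on the vertical axis, with dashed lines at -1 and 1 and members past both in red. Traf6 and Traf1 lie past the fold upwards and Irak3, Cd180, Ticam2, Tank and Nfkb2 downwards, while Ticam1, Map3k7, Tnfaip3 and Tab3 lie far from the WT sample in 1 of the 2 samples; Tab3 had 0 counts in the WT sample and in sample 2.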

How the data were processed

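Bulk RNA-seq of sorted pre-cDCs was analysed in 9 samples: BM in 3 WT and 3 DNGR-1 KO (KO), spleen in 1 WT and 2 KO, grouped by genotype and tissue as in their labels. Total RNA libraries depleted of ribosomal RNA were sequenced. The submitters' processing notes name Trimmomatic 0.36, STAR 2.5.2, RSEM 1.3.0, DESeq2 1.18.1, R 3.4.3 and the build GRCm38. The authors deposited expected counts per gene, not normalized, of which 25.6% of nonzero values were not whole, and these were rounded. The authors also deposited log2-scale values from a variance stabilizing transformation (VST) for 20810 genes, used as an alternative. Whether counting used strand is not given in the sources used here.

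The 40 members and the other gene lists were chosen with earlier results of these data known. Symbols, coordinates and exon lengths came from GENCODE M21 (GRCm38), and 51719 of 51912 identifiers had a symbol. Counts were fitted in R 4.3.3 with edgeR 4.0.16 (TMM, filterByExpr, quasi-likelihood test, Benjamini-Hochberg over all genes tested, threshold 0.05): BM genotypes over 6 samples, tissues over 9 with genotype as a covariate. Standard errors were taken from the F statistic. CPM values are normalized by TMM, log2 differences in spleen use a prior count of 2, and the fold there is a log2 difference of 1. Folds against 3 counts or fewer are lower bounds. The depth of 17103806 to 23722298 counts puts 3 counts at 0.127 to 0.18 CPM. Between replicates of a group, chi-square values per gene ran from 30.8 to 267, far above sampling noise, and every library was counted as a separate sample. Samples shared mice in a way the labels do not give, so p-values measure only the spread between these samples; the replicate number as a block was an alternative.

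Alternatives were DESeq2 1.42.0, limma 3.58.1 (voom, and on the VST values), RLE size factors, no filter or a stricter filter on counts, a block for the replicate number, other sample sets, the score of congenic chromosome 1 genes, other prior counts and folds, and each sample left out. The members named with values in every sample are those called in a comparison, the 5 with the lowest p in BM, those past the fold in spleen and the 3 highest and 3 lowest per length; others are named where a count or range singles them out. The scripts were tested on simulated data.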

Additional observations from a re-analysis of the deposited data

Results flagged for a closer look

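For 2 members, picked for this pattern, the KO samples all lay on one side of the WT samples in BM and on the opposite side of the single WT sample in spleen. Ticam2 had a log2 fold change in KO relative to WT of 0.56 in BM and a mean log2 difference of -1.80 in spleen. Chuk had -0.48 in BM and 0.64 in spleen. These differences between tissues were not tested, as there was 1 WT spleen sample, neither gene was past the threshold in BM (edgeR adjusted p = 0.861), and genotype and library cannot be told apart in spleen.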

How the results depend on the processing

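Of the 40 members, 0 were called between BM genotypes under all 9 other settings and all 6 fits that left out a sample. In the tissue comparison 11 members were higher, against 7.28% of genes. The count was 16 with DESeq2 (11.7% of genes), 10 with limma-voom (8.46%), 12 with RLE size factors (8.07%) and 8 with no filter (4.24%). It was 12 of 38 tested with at least 10 counts in every sample (11.4%) and 14 on the VST values (9.61%). Without the genotype covariate it was 12 (9.02%), and with the KO samples alone 4 (3.71%). Counted in either direction, 6 to 13 members were called when a sample was left out. In those fits 5.13% to 8.1% of genes were higher and 8.89% to 14.8% lower. A member was called lower in 2 of these fits, Tollip without WT BM sample 1 and Tab3 without KO spleen sample 1. The 4 members Traf1, Nfkbia, Nfkbiz and Relb passed in all 18 other fits. With the replicate number as a block 5 members were called higher (Nfkbia, Nfkbie, Nfkbiz, Relb and Traf1), against 3.19% of genes. Same-numbered WT and KO BM samples had correlations of 0.103, 0.0990 and -0.0815 within BM. Whether a number marks shared mice is not stated. The block changed no call between BM genotypes. In spleen, 7 members were past the fold, where 15.1% of genes were higher and 7.69% lower. With a log2 difference of at least 2 there were 3 members, against 10.2% and 3.08% of genes. With a KO sample left out there were 11 to 13, against 24.3% to 25.7% and 15.5% to 16.9% of genes. Over all genes, 980 were higher and 1651 lower in spleen, 1578 and 2368 with DESeq2, 429 and 817 with the replicate block, 499 and 837 with the KO samples alone, and 977 and 785 with at least 10 counts in every sample. In BM 2 genes were higher and 2 lower, 7 and 4 with DESeq2, 6 and 4 with no filter, 3 and 1 with at least 10 counts in every sample, 1 and 2 over all 9 samples, and 2 and 13 without KO BM sample 1. The median standard error of a member's log2 fold change, 0.31 in BM and 0.35 between tissues, sets the size of change these samples resolve, and the depth bears only on Tab3, Irak3, Map3k7 and Traf6, which fell to 23 counts or fewer in a spleen sample.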
